A study of Mus musculus with 70 samples.

Results

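The 10 genes described here belong to arginine and urea metabolism and were followed through 70 RNA sequencing libraries of mouse liver: the arginases Arg1 and Arg2, the urea cycle enzymes Cps1, Otc, Ass1 and Asl, the cofactor synthase Nags, the mitochondrial ornithine carrier Slc25a15, the arginine transporter Slc7a2 and the ornithine decarboxylase Odc1. They were chosen by symbol, and all 10 are listed in each of the 3 deposited count tables, which hold 23839 genes (male liver), 24982 genes (female liver) and 24982 genes (macrophages). The libraries came from total liver lysate and from sorted F4/80high CD11blow cells, the resident macrophages of the liver, taken from males and females after 24 weeks of feeding. In each tissue and sex there were 4 groups: OpnKI Mye mice (KI below) on a NASH (nonalcoholic steatohepatitis) diet, Lyz2.Cre+/+ mice (WT below) on the NASH diet, KI mice on control diet and WT mice on control diet. Each group has 4 libraries, except that the NASH groups of macrophages have 5 in males and 6 in females.

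The name OpnKI Mye stands for an osteopontin knock-in of the myeloid lineage, osteopontin being encoded by Spp1, and the WT mice carry the Lyz2 Cre allele alone, so neither genotype is free of introduced alleles, per the labels. Lyz2 itself was at 43.3 to 166 CPM (a count scaled by library size, here by the total count) in 10 of the 38 macrophage libraries and at 1473 to 3782 CPM in the other 28. The low ones were 2 of 6 KI NASH, 3 of 4 KI control and 3 of 4 WT control libraries of females and 1 of 4 KI control and 1 of 4 WT control libraries of males, so libraries with the same label were not alike at this locus, and the part of that in the results was not tested. The Lyz2 promoter is active in monocytes, neutrophils and tissue macrophages, and so does not single out the resident macrophages of the liver. The labels give no age and do not say whether animals were pooled. The study asked what osteopontin made by macrophages does in NASH; arginase 2 of hepatocytes, downstream of oncostatin M and STAT3, is part of that question.

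The urea cycle turns ammonia into urea, mostly in hepatocytes around the portal vein. Carbamoyl phosphate synthetase 1 (Cps1), activated by the N-acetylglutamate that Nags makes, and ornithine transcarbamylase (Otc) work in the mitochondrion, argininosuccinate synthetase (Ass1) and lyase (Asl) make arginine in the cytosol, and arginase 1 (Arg1) splits it into urea and ornithine, which Slc25a15 returns to the mitochondrion. Arginase 2 (Arg2) is the mitochondrial isoform, known in kidney and in myeloid cells, Slc7a2 is a cationic amino acid transporter that brings arginine into the cell, and Odc1 turns ornithine into putrescine, the first step of polyamine synthesis.

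Total counts ranged from 11245097 to 29966174 per library. Replicates 3 and 4 of the WT control livers of males differed by less than counting noise over genes whose counts in both add up to between 20 and 200. They were counted as 1 library, so that group has n = 3. Abundant genes differed between them far beyond that noise, with 294229 albumin counts in replicate 3 and 2516324 in replicate 4, and 12745 and 21501 counts of Arg1. Sex genes went against the male label in that library and in replicate 4 of the male WT control macrophages; both stayed in their labelled groups, and counts without them are given where they differ. The targeted gene Spp1 was measured at 43.7 to 198.6 CPM in KI NASH and 5.72 to 55.9 CPM in WT NASH macrophages of males, and at 7.12 to 11.3 CPM in KI control and 0.268 to 0.516 CPM in WT control macrophages of males. In females it was at 2.17 to 102 CPM in KI NASH, 1.15 to 11.1 CPM in WT NASH, 1.43 to 2.47 CPM in KI control and 0 to 0.199 CPM in WT control macrophages. On control diet every KI macrophage library of either sex thus lay above every WT library of that sex, but none of the 4 tests of KI against WT passed. The log2 fold change was 2.05 (adjusted p = 0.089) on the NASH diet and 4.56 (adjusted p = 0.635) on control diet in males, and 2.01 (adjusted p = 0.161) and 4.16 (adjusted p = 0.105) in females. In total liver, in CPM scaled by TMM factors, Spp1 was lower in male KI NASH, at 22.5 to 66 CPM, than in male WT NASH, at 126.4 to 562 CPM (log2 fold change -2.89, adjusted p = 0.000438). It passed in none of the other 3 liver comparisons of KI with WT (log2 fold change -1.22 to 0.085), so the genotype of the liver libraries rests on their labels. The Kupffer cell markers were present in every macrophage group, with a summed level of 15250 to 40120 CPM per library over 8 genes.

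Argininosuccinate synthetase could not be read in these tables. Ass1 (chr2:31470207-31520672, + strand, GRCm38) had 0 to 12 counts per liver library and 1 count in all 38 macrophage libraries together, so it entered no fit, and all statements below on tested members concern the other 9. The processed pseudogene Gm5424 (chr10:62071123-62072362, + strand) also had 0 counts in every library. Its sequence is 99.51% identical to the coding sequence of Ass1, with 6 differences in 1236 bases and identical runs of up to 398 bases, and 55.3% of the 50-base windows of the Ass1 exons occur in Gm5424. Coding positions 301 to 450 of Ass1 and the matching stretch of the pseudogene (chr10:62071423-62071572) are shown 5′ to 3′ to make that likeness visible, with the bases that differ in capitals (GENCODE M21 annotation on GRCm38).
Ass1: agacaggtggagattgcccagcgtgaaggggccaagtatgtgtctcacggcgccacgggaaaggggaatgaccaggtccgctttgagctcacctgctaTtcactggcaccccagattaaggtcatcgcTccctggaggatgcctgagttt
Gm5424: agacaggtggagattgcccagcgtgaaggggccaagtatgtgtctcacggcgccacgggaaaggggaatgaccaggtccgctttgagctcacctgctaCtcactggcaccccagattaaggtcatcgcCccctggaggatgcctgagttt
How reads that match both places were counted is not given in the sources used here, and the part of this in the low Ass1 counts was not tested.

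Some other members share sequence with other genes. Of the 50-base windows of Odc1, 42.2% occur elsewhere (20.3% in the pseudogene Gm7993), and of those of Slc7a2 1.83%. Arg2 overlaps the last 285 bases of its neighbour Vti1b on the opposite strand, and Nags overlaps the antisense gene Gm11586 over 698 bases, so their counts are uncertain to that extent because the strand setting of the counting is not given. No window of Arg1, Cps1, Otc, Asl or Slc25a15 occurs in another gene.

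The 2 arginases were split between the tissues. Per kilobase of exon, and averaged over the 8 groups of each tissue, Arg2 (chr12:79130777-79156301, + strand) was at 77.3 CPM per kb in the sorted macrophages and at 0.779 CPM per kb in liver. Arg1 (chr10:24915221-24927484, - strand) was at 2.31 CPM per kb in macrophages and at 588 CPM per kb in liver. Odc1 (chr12:17544794-17551505, + strand) was the other member with a higher level in macrophages, at 37.2 CPM per kb, against 23.5 CPM per kb in liver. These levels come from tables normalised separately, so they are set side by side without a test.

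Within liver, the order of levels per kilobase ran from Cps1 (chr1:67123026-67231259, + strand) at 937 CPM per kb over Arg1 to Asl (chr5:130011258-130029247, - strand) at 111, Otc (chrX:10252305-10321024, + strand) at 93.9, Slc7a2 (chr8:40862396-40922308, + strand) at 89.2 and Slc25a15 (chr8:22375551-22398597, - strand) at 54.7 CPM per kb, with Odc1, Nags (chr11:102145513-102149477, + strand) at 19.6 CPM per kb and Arg2 at the low end. Neighbours in this order from Asl to Slc7a2 lie close together, and their libraries overlap widely. In macrophages the cycle enzymes were low: Asl stood at 4.9, Cps1 at 2.78, Otc at 0.355 and Nags at 0.103 CPM per kb. All levels from here on are CPM scaled by TMM factors, not divided by length.

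Male WT livers had less of most urea cycle transcripts on the NASH diet. Of the 9 tested members 6 fell (Cps1, Asl, Slc7a2, Arg1, Slc25a15 and Otc) and none rose, with a median log2 fold change of -0.91, where 9.74% of all 12988 tested genes fell and the median of all genes was -0.011. Cps1, the entry enzyme of the cycle, had 1639, 1907, 1742 and 2342 CPM in WT NASH livers, against 7069, 6929 and 3616 CPM in WT control livers. Every WT NASH library was below every WT control library, and the control library at 3616 CPM is the one whose sex genes go against its label. The log2 fold change was -1.62 (SE 0.21, adjusted p = 0.000513). In bulk tissue, fewer hepatocytes and less RNA per hepatocyte cannot be told apart.

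The lyase Asl had 227, 262, 293 and 338 CPM in WT NASH livers, against 885, 662 and 525 CPM in WT control livers, a log2 fold change of -1.30 (SE 0.20, adjusted p = 0.00137). Arg1 had 687, 822, 650.3 and 713 CPM in WT NASH livers, against 1857, 1482 and 1085 CPM in WT control livers (log2 fold change -1.04, SE 0.16, adjusted p = 0.00136). Neither gene had overlapping groups. Slc7a2 had 312, 319, 309.7 and 365 CPM in WT NASH livers, against 992, 678 and 458 CPM in WT control livers (log2 fold change -1.12, SE 0.25, adjusted p = 0.00764). The carrier Slc25a15 had 156, 205, 197 and 222 CPM in WT NASH livers, against 483, 349.7 and 269.8 CPM in WT control livers (log2 fold change -0.91, SE 0.20, adjusted p = 0.00772). These 2 transport genes were also lower in every WT NASH library than in any WT control library. How many of all genes separated like this was not counted, here or in the comparisons below. Separation is therefore no result about the members. Otc had 244, 379.7, 265 and 324 CPM in WT NASH livers, against 501, 470.3 and 341 CPM in WT control livers. Replicate 2 of the WT NASH livers reached into the control range, and the call of Otc (log2 fold change -0.53, SE 0.17, adjusted p = 0.0397) was lost when KI NASH replicate 3, WT NASH replicate 1 or 3 or WT control replicate 1 or 2 was left out, where the adjusted p went up to 0.146.

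The 3 members that did not pass were Nags (log2 fold change -0.16, adjusted p = 0.308), Odc1 (-0.11, adjusted p = 0.759) and Arg2 (-0.70, SE 0.76, adjusted p = 0.53, at 0.275 to 0.48 CPM in WT NASH livers and 0.321 to 0.975 CPM in WT control livers). Without the library with contradicting sex genes the count stayed at 6, and the log2 fold change of Cps1 was -1.88.

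Hepatocyte genes outside the cycle moved with this result. Of 13 general hepatocyte markers 8 were lower in male WT NASH than in WT control livers (median log2 fold change -0.58), and of 6 periportal markers 4 were lower (median -1.19), while 1 of 8 pericentral markers was lower and 1 higher (median -0.093). Of other cell types, 3 of 5 recruited monocyte markers were higher, with sums of 14.8 to 41.6 CPM in WT NASH and 2.06 to 6.21 CPM in WT control livers. So were 3 of 5 stellate cell markers, with sums of 478 to 793 CPM in WT NASH and 292 to 439 CPM in WT control livers, and 1 of 4 cholangiocyte markers, with sums of 8.62 to 59.9 CPM in WT NASH and 4.76 to 7.06 CPM in WT control livers. Of 6 lipid-associated macrophage markers 4 were higher and 1 lower. Their sums went the other way, at 124.4 to 298.4 CPM in WT NASH and 292.2 to 489.9 CPM in WT control livers. The part of these changes in the result was not tested. The 12 hepatocyte markers other than Trf summed to 102200 to 118100 CPM in WT NASH livers and 142800 to 219100 CPM in WT control livers. In the control library counted from 2 versions, replicate 3 had 11.7% of the albumin counts of replicate 4 and 66.5% of its Cps1 counts, so the level of abundant hepatocyte genes in that library is uncertain.

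**Figure D1:**
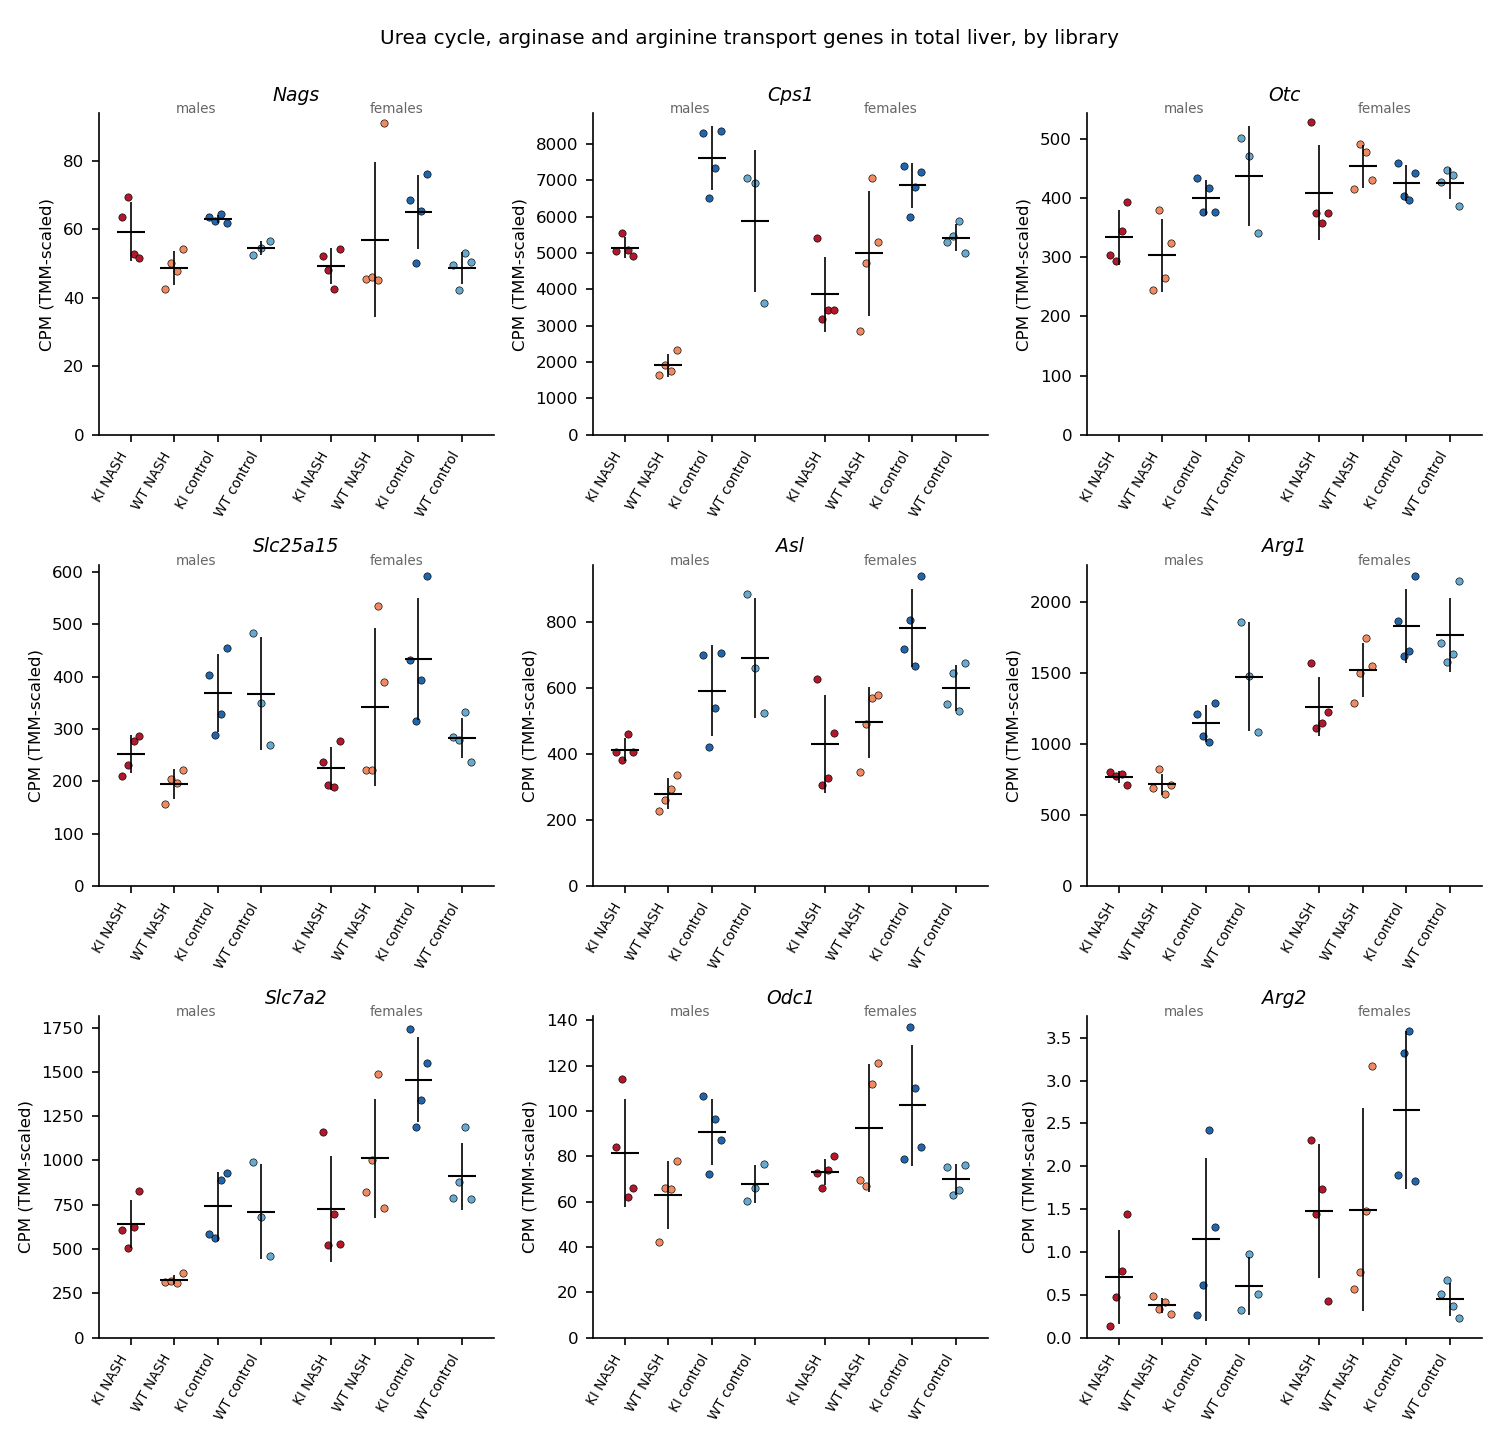
CPM (TMM-scaled) of the 9 tested members in total liver. Points are libraries, horizontal lines group means and vertical lines 1 SD, with n = 4 per group and n = 3 in male WT control livers. In males, Cps1 stands at 1639 to 2342 CPM in all 4 WT NASH livers and at 4910 to 5556 CPM in all 4 KI NASH livers.

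In male KI livers no member passed for the diet, and neither did any of the 12988 genes tested (0%, with 847 genes at an unadjusted p under 0.05). DESeq2 called 1 member, Arg1. Without passing, Cps1 had 5049, 5556, 5075 and 4910 CPM in KI NASH livers, against 8292, 6496, 7339 and 8339 CPM in KI control livers. Every KI NASH library was below every KI control library. The log2 fold change of Cps1 was -0.57 (SE 0.20, adjusted p = 0.589), that of Arg1 was -0.57 (SE 0.15, adjusted p = 0.437) and that of Slc25a15 was -0.55 (SE 0.19, adjusted p = 0.589), all 3 without overlap between the groups. The share of all genes without overlap was not counted, so this separation is no result about the members. The median of the 9 members was -0.52, against 0.013 for all genes.

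On the NASH diet, male KI livers had more of part of the cycle than male WT livers. Cps1, Slc7a2, Asl and Nags were higher (4 of 9 members, where 19.6% of all genes were higher), with a median of 0.38 over the members and -0.021 over all genes. The 4 KI NASH values of Cps1 given above all exceed the 4 WT NASH values, and the log2 fold change was 1.43 (SE 0.20, adjusted p = 0.000228), or 2.7-fold. Slc7a2 had 608, 505, 623 and 828 CPM in KI NASH livers, against the 309.7 to 365 CPM of WT NASH livers (log2 fold change 0.97, SE 0.23, adjusted p = 0.0053). Asl had 407, 382, 461 and 405 CPM in KI NASH livers, against 227 to 338 CPM in WT NASH livers (log2 fold change 0.56, SE 0.19, adjusted p = 0.0311). Neither of these 2 genes had overlapping groups. Nags had 63.5, 69.6, 52.7 and 51.7 CPM in KI NASH livers, against 42.5, 50.2, 48 and 54.4 CPM in WT NASH livers, which overlap (log2 fold change 0.28, SE 0.10, adjusted p = 0.0416).

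Arg1 did not pass in this comparison. It had 804, 772, 789.7 and 711 CPM in KI NASH livers, against 687 to 822 CPM in WT NASH livers, a log2 fold change of 0.10 (SE 0.15, adjusted p = 0.629). Otc (0.14, adjusted p = 0.51), Slc25a15 (0.37, adjusted p = 0.138), Odc1 (0.38, adjusted p = 0.164) and Arg2 (0.91, SE 0.68, adjusted p = 0.306) did not pass either. Of the 4 calls, those of Cps1 and Slc7a2 held without each library in turn, while the count was 2 when KI NASH replicate 1 or any of WT NASH replicates 1, 2 and 3 was left out. The call of Nags was lost in 11 of 15 fits without 1 library, and also with no filter, with a replicate block and in a fit of the compared groups alone. General hepatocyte markers were higher in 4 of 13 (median 0.19), and 2 of 6 periportal markers were higher and 1 lower; the part of this in the result was not tested.

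The diet effect itself was compared between the genotypes. Among the members none differed (1.13% of all genes did): the difference of the log2 diet effects, KI minus WT, was 1.06 for Cps1 (SE 0.29, adjusted p = 0.0924), 0.91 for Slc7a2 (SE 0.34, adjusted p = 0.163) and 0.79 for Asl (SE 0.28, adjusted p = 0.151). Without the library with contradicting sex genes (WT control replicates 3 and 4), 2 members passed, Cps1 at 1.31 (adjusted p = 0.011) and Slc7a2 at 1.15 (adjusted p = 0.0484), and DESeq2 with it called 1. There were 2602 genes at an unadjusted p under 0.05 in this comparison. On control diet, male KI and WT livers differed in no member (4.67% of all genes differed, with 3013 at an unadjusted p under 0.05; by DESeq2 0 members passed). Arg1 had 1210, 1059, 1017 and 1292 CPM in KI control livers, against 1857, 1482 and 1085 CPM in WT control livers (log2 fold change -0.37, SE 0.16, adjusted p = 0.189), and without WT control replicates 3 and 4 it passed at -0.54 (adjusted p = 0.0449).

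**Figure D2:**
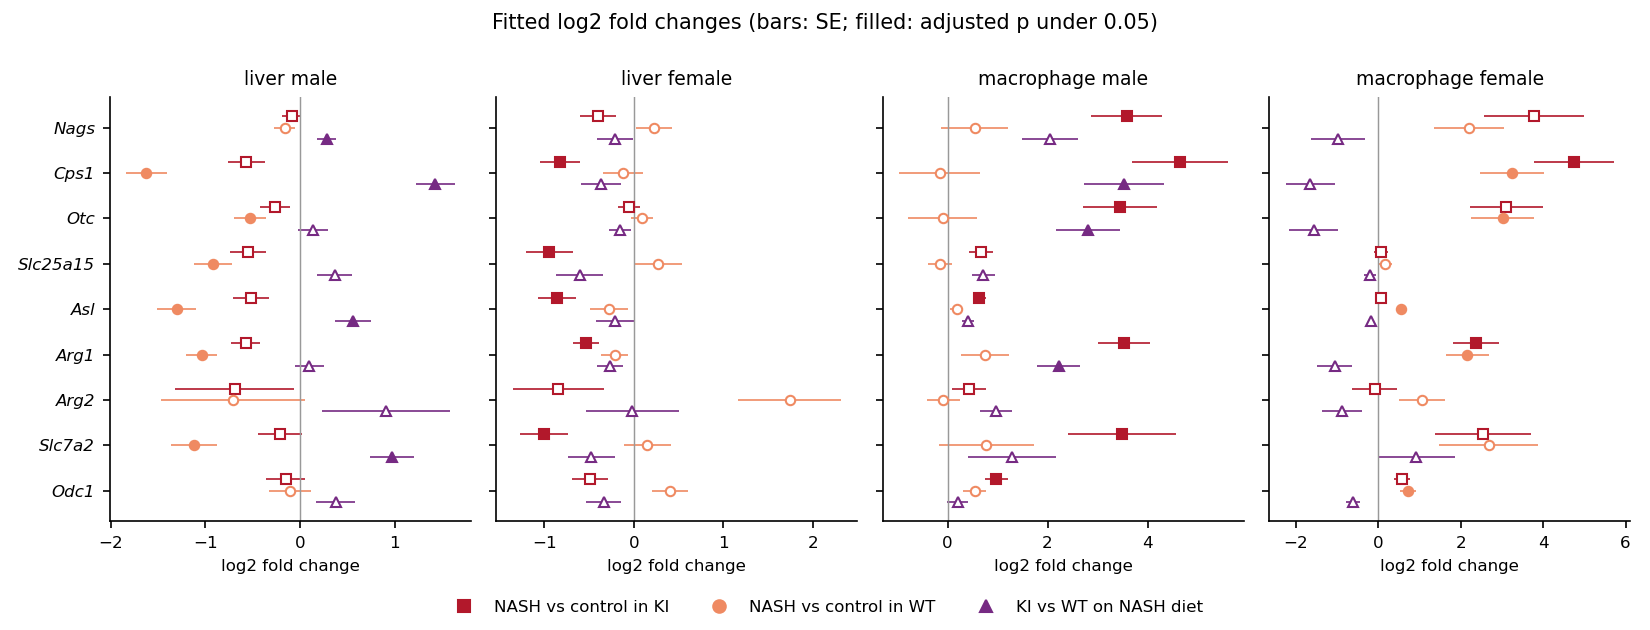
Fitted log2 fold changes of the 9 tested members in liver and sorted macrophages of each sex, with bars of 1 SE; filled symbols have an adjusted p under 0.05. In male liver the WT diet effect on Cps1 is -1.62 and the KI effect on the NASH diet 1.43, and the macrophage panels reach 4.65 and 4.75 for the KI diet effect on Cps1.

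In female livers the members that passed for the diet were in KI mice. In WT females no member passed (0.0526% of all genes did, with 1829 at an unadjusted p under 0.05, and DESeq2 called 0): Cps1 had 2860, 4724, 7057 and 5296 CPM in WT NASH livers, against 5308, 5477, 5881 and 5001 CPM in WT control livers. The WT NASH libraries lay on both sides of the control range (log2 fold change -0.12, SE 0.22, adjusted p = 0.859). In KI females 5 of 9 members fell (4.63% of all genes fell), namely Slc7a2, Slc25a15, Asl, Cps1 and Arg1, with a median of -0.83 against -0.0026 for all genes.

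Cps1 had 5404, 3171, 3416 and 3439 CPM in female KI NASH livers, against 7400, 5997, 6817 and 7221 CPM in KI control livers (log2 fold change -0.83, SE 0.22, adjusted p = 0.0326). Slc7a2 had 1160, 523, 696 and 531 CPM in KI NASH livers, against 1743, 1191, 1342 and 1549 CPM in KI control livers (log2 fold change -1.002, SE 0.26, adjusted p = 0.0302). In both genes KI NASH replicate 1 was the highest of its group, and it still lay below every KI control library. Asl had 626, 306, 328 and 463 CPM in KI NASH livers, against 718, 806, 667 and 938 CPM in KI control livers (log2 fold change -0.86, SE 0.21, adjusted p = 0.0237). Slc25a15 had 238, 194, 190.1 and 278 CPM in KI NASH livers, against 432, 316, 393 and 592 CPM in KI control livers (log2 fold change -0.95, SE 0.26, adjusted p = 0.0368). Arg1 had 1570, 1111, 1150 and 1224 CPM in KI NASH livers, against 1863, 1617, 1656 and 2185 CPM in KI control livers (log2 fold change -0.53, SE 0.15, adjusted p = 0.0376). These 3 genes did not overlap between the groups either, and the share of all genes without overlap was not counted.

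Otc, by contrast, had 358 to 529 CPM in female KI NASH livers and 396 to 459 CPM in KI control livers (log2 fold change -0.06, adjusted p = 0.809). The 5 calls rest on few libraries: the count was 0 without KI control replicate 4 or KI NASH replicate 2 or 3, 1 without KI control replicate 1 or 3, and 2 without KI NASH replicate 4. No general hepatocyte marker passed in this comparison (0 of 13, median -0.35; 1 of 6 periportal markers was lower), and the 12 hepatocyte markers other than Trf summed to 101800 to 138300 CPM in KI NASH livers and 131000 to 178900 CPM in KI control livers, whose part in the result was not tested. The diet effects of KI and WT females differed in no member (4.77% of all genes differed, 3039 at an unadjusted p under 0.05), with a KI minus WT difference of -1.22 for Slc25a15 (SE 0.37, adjusted p = 0.0677) and -1.16 for Slc7a2 (SE 0.37, adjusted p = 0.0827). DESeq2 called 4 members there, as did the fit without WT NASH replicate 1, and 3 passed without WT NASH replicate 2. KI and WT females on the NASH diet differed in no member (0.0901% of all genes, 1728 at an unadjusted p under 0.05, and 0 members by DESeq2), and Cps1 had a log2 fold change of -0.37 (SE 0.22, adjusted p = 0.499).

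The sexes were compared in a joint fit of both liver tables. The KI effect on the NASH diet, female minus male, was lower for Cps1 at -1.82 (SE 0.31, adjusted p = 0.000335), for Slc7a2 at -1.47 (SE 0.37, adjusted p = 0.00914) and for Slc25a15 at -0.99 (SE 0.34, adjusted p = 0.049), 3 of 9 members where 8.76% of all genes were lower. The call of Slc25a15 was lost without any of 20 of the 31 libraries. The diet effect in WT mice, female minus male, was higher for Cps1 at 1.55 (SE 0.31, adjusted p = 0.0139) and Arg1 at 0.87 (SE 0.22, adjusted p = 0.041), where 0.85% of all genes were higher. That count of 2 was 6 without the male library with contradicting sex genes, with Otc, Asl, Slc25a15 and Slc7a2 added, and 0 without male WT control replicate 1 or 2. It was 4 without female KI NASH replicate 1 or female WT NASH replicate 1, and 1 without any of 9 other libraries. The diet effect in KI mice differed between the sexes in no member (0.596% of all genes, 1903 at an unadjusted p under 0.05, and 0 members by DESeq2). Males and females stand in separate tables, so sex and table cannot be told apart in levels, and each contrast was taken within a table first.

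Arg2 was near the limit of detection in liver. It had 3 to 72 counts per liver library, and its call concerned females on control diet, where 1 of 9 members was higher in KI than in WT livers (4.04% of all genes were higher). Arg2 had 1.89, 3.32, 3.58 and 1.83 CPM (34, 69, 72 and 32 counts) in KI control livers, against 0.514, 0.666, 0.373 and 0.226 CPM (11, 14, 8 and 5 counts) in WT control livers. Every KI control library was above every WT control library, with a log2 fold change of 2.57 (SE 0.57, adjusted p = 0.0171), or 5.95-fold; without WT control replicate 3 the adjusted p was 0.0508. Fitted on the compared groups alone, 2 members passed. Cps1 (log2 fold change 0.34, adjusted p = 0.368), Slc7a2 (0.68, adjusted p = 0.124) and Odc1 (0.55, adjusted p = 0.0982) were also above in every KI control library without passing. The share of all genes separated in this way was not counted.

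On the NASH diet, Arg2 had 2.3, 1.45, 1.74 and 0.43 CPM in female KI livers, against 0.561, 0.761, 1.48 and 3.17 CPM in female WT livers, and the groups overlapped fully (log2 fold change -0.02, SE 0.52, adjusted p = 0.994). In males it had 0.137, 0.471, 0.778 and 1.44 CPM in KI NASH livers, against 0.48, 0.332, 0.413 and 0.275 CPM in WT NASH livers, with the highest and the lowest value both among the KI libraries. Summed Kupffer cell markers were 434 to 554 CPM in female KI control livers and 447 to 644 CPM in female WT control livers, and 1 of 8 was lower. Neutrophil markers summed to 11.7 to 47.7 CPM in KI control and 7.46 to 16.5 CPM in WT control livers, and 2 of 5 were higher (median log2 fold change 2.27). Recruited monocyte markers summed to 3.9 to 5.82 CPM in KI control and 3.17 to 5.01 CPM in WT control livers, with 1 of 4 tested higher, and lipid-associated macrophage markers to 50.8 to 516 CPM in KI control and 84.3 to 340.2 CPM in WT control livers, with 0 of 6 passing. The part of these cells in the Arg2 difference was not tested.

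The upstream genes named in the study's question were read beside Arg2. Stat3, the transcription factor, was higher in KI than in WT control livers of females (log2 fold change 0.90, adjusted p = 0.0465) and in KI than in WT NASH livers of males (0.95, adjusted p = 0.00212), and lower in WT NASH than in WT control livers of males (-0.69, adjusted p = 0.0289). KI and WT did not differ in it in NASH livers of females (-0.15, adjusted p = 0.841) or control livers of males (0.25, adjusted p = 0.494). Its KI effect on the NASH diet in liver was lower in females than in males (difference -1.115, adjusted p = 0.027). Stat3 passed in no macrophage comparison. Osm, the gene of oncostatin M, was too low in liver to be tested. In female control macrophages Osm had 3.62, 7.11, 3.27 and 7.29 CPM in KI, against 0.193, 0.351, 0.222 and 0.241 CPM in WT, a log2 fold change of 4.41 (SE 0.63, adjusted p = 0.000756). Osm was also higher in KI than in WT NASH macrophages of males (2.09, adjusted p = 0.0403) and females (1.94, adjusted p = 0.0467). In male control macrophages it did not pass (2.26, adjusted p = 0.635). The NASH diet raised Osm in macrophages of each genotype and sex (log2 fold change 2.15 to 4.62). Its receptor gene Osmr did not differ between KI and WT control livers of females (log2 fold change 0.25, adjusted p = 0.519) and was lower in KI than in WT NASH livers of females (-1.21, adjusted p = 0.0464). Cpt1a, the carnitine transferase of fat oxidation, passed in none of the 26 comparisons.

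In the sorted macrophages Arg2 was abundant and passed in no comparison. Male libraries had 263, 97.9, 201, 218 and 80.1 CPM in KI NASH, 99.8, 61.5, 64.4, 116 and 98.9 CPM in WT NASH, 74.8, 165, 156 and 116 CPM in KI control and 136, 84, 73.7 and 81.4 CPM in WT control macrophages. Female libraries ranged from 30 to 137 CPM (median 95.2) in KI NASH and from 81.6 to 198 CPM (median 166) in WT NASH macrophages. Female control macrophages had 151, 164, 23.7 and 17.5 CPM in KI and 91.7, 86.8, 90.5 and 25.9 CPM in WT. Each of the 8 groups thus overlapped the others of its sex, and the 2 female control groups held both high and low libraries. The diet effect in WT females was 1.07 (adjusted p = 0.219), and the KI effect on the NASH diet was 0.96 in males (SE 0.32, adjusted p = 0.118) and -0.89 in females (SE 0.49, adjusted p = 0.35), with a female minus male difference of -1.83 (SE 0.63, adjusted p = 0.108).

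**Figure D3:**
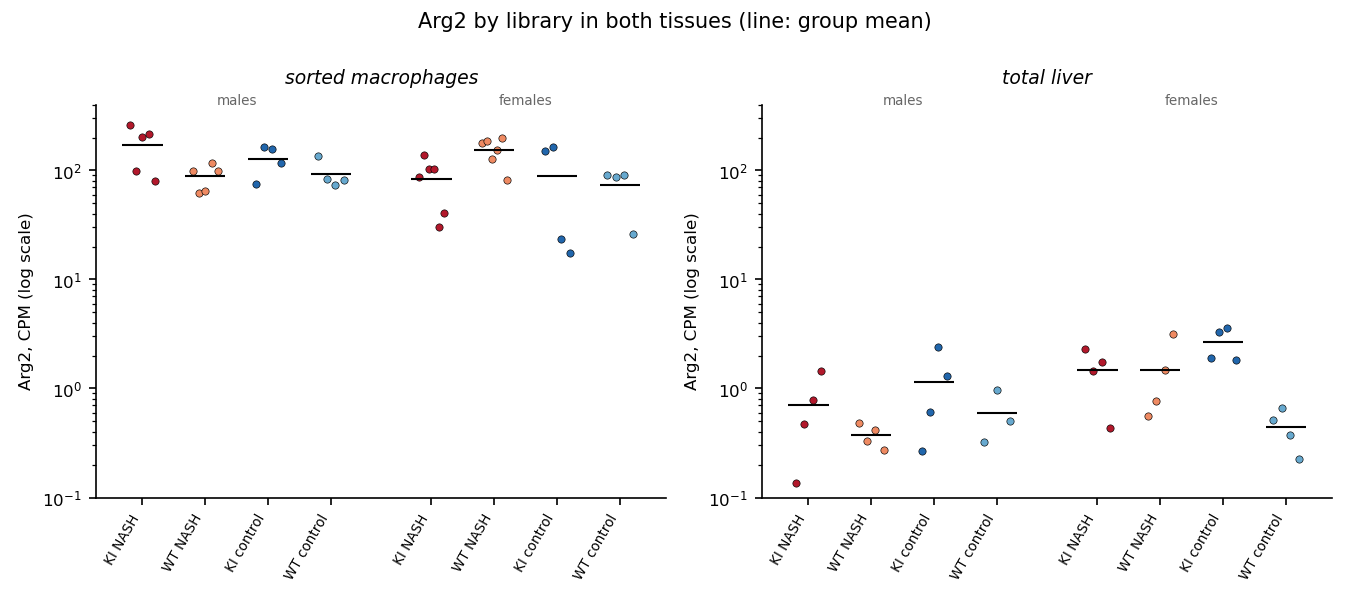
Arg2 in CPM on a log axis, by library, in sorted macrophages (left) and total liver (right); horizontal lines are group means. Macrophage libraries lie between 17.5 and 263 CPM and liver libraries between 0.137 and 3.58 CPM.

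Urea cycle transcripts were higher in the sorted macrophages of male KI mice on the NASH diet. Of the 9 tested members 7 were higher in KI NASH than in KI control macrophages (15.1% of all 13036 genes were higher), with a median of 3.45 against 0.012 for all genes. Cps1 had 32.5, 11.6, 41.3, 191 and 41 CPM in KI NASH macrophages, against 0.802, 1.29, 2.34 and 5.71 CPM in KI control macrophages, and replicate 4 stood far above the others (log2 fold change 4.65, SE 0.95, adjusted p = 0.0029). Arg1 had 20.3, 10.3, 24.6, 35.8 and 7.05 CPM in KI NASH macrophages, against 0.974, 1.82, 2.25 and 1.67 CPM in KI control macrophages (log2 fold change 3.53, SE 0.52, adjusted p = 0.000621). Neither overlapped between the groups. Nags (3.58, adjusted p = 0.0025), Otc (3.45, adjusted p = 0.00365), Slc7a2 (3.49, SE 1.07, adjusted p = 0.026) and Asl (0.64, adjusted p = 0.00345) were likewise higher in every KI NASH library. The share of all genes separated like this was not counted. Odc1 had 236, 194, 174, 263 and 105 CPM in KI NASH macrophages, against 87.2, 97.3, 113 and 97.7 CPM in KI control macrophages, with 1 library inside the control range (log2 fold change 0.98, SE 0.23, adjusted p = 0.00681). Slc25a15 (0.66, adjusted p = 0.0547) and Arg2 (0.43, adjusted p = 0.38) did not pass. The call of Slc7a2 was lost without KI control replicate 2 or 3.

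Markers of hepatocytes rose in the same macrophage libraries. Of 13 hepatocyte markers 12 were higher in male KI NASH than in KI control macrophages (median log2 fold change 2.43), and the 12 markers other than Trf, which macrophages also express, summed to 543 to 3301 CPM in KI NASH and 212 to 347 CPM in KI control macrophages. Of 8 Kupffer cell markers 6 were lower (median -1.01). All 5 recruited monocyte markers were higher, with sums of 68.7 to 337.5 CPM in KI NASH and 4.64 to 18.6 CPM in KI control macrophages, and so were all 6 lipid-associated macrophage markers, with sums of 906 to 4645 CPM in KI NASH and 492 to 567 CPM in KI control macrophages. The part of the hepatocyte transcripts or of these cells in the higher members was not tested. Per 1000 CPM of albumin (Alb), Arg1 had 22.3 to 46.5 CPM in male KI NASH macrophages, against 5.8 to 16.2 CPM in KI control macrophages, while male KI NASH livers had 8.47 to 12.3 CPM. Cps1 had 38.8 to 191 CPM per 1000 CPM of Alb in KI NASH macrophages, against 4.77 to 48.7 CPM in KI control macrophages, while male KI NASH livers had 53.2 to 82.5 CPM. Otc had 6.03 to 12.4 CPM per 1000 CPM of Alb in KI NASH macrophages, against 1.17 to 6.09 CPM in KI control macrophages, while male KI NASH livers had 3.19 to 6.62 CPM. In males, the ratio of Arg1 to albumin in KI NASH macrophages thus lay above that in KI control macrophages and in these livers. The ratios of KI control macrophages and these livers overlapped. Male WT NASH macrophages had 17.7, 137, 31.1, 21.8 and 44.4 CPM of Arg1 per 1000 CPM of Alb, which overlap KI NASH macrophages. The ratios of Cps1 and Otc overlapped in part. In male WT NASH macrophages they were 15.5 to 123 CPM (Cps1) and 2.91 to 15.5 CPM (Otc), which overlap male KI NASH macrophages. In females the ratio of Arg1 was 13.6 to 40.1 CPM in KI NASH macrophages, inside the 7.26 to 51.6 CPM of KI control macrophages. In WT NASH macrophages of females it was 10.3 to 22.9 CPM, against 6.05 to 11.7 CPM in WT control macrophages. Female WT NASH livers had 18.3 to 23.1 CPM. Replicate 4 of the male KI NASH macrophages, with the highest Cps1, also had 1604 CPM of Alb. For Asl and Odc1 the macrophage ratios lay far above those of liver, as the plot of members against albumin shows.

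**Figure D4:**
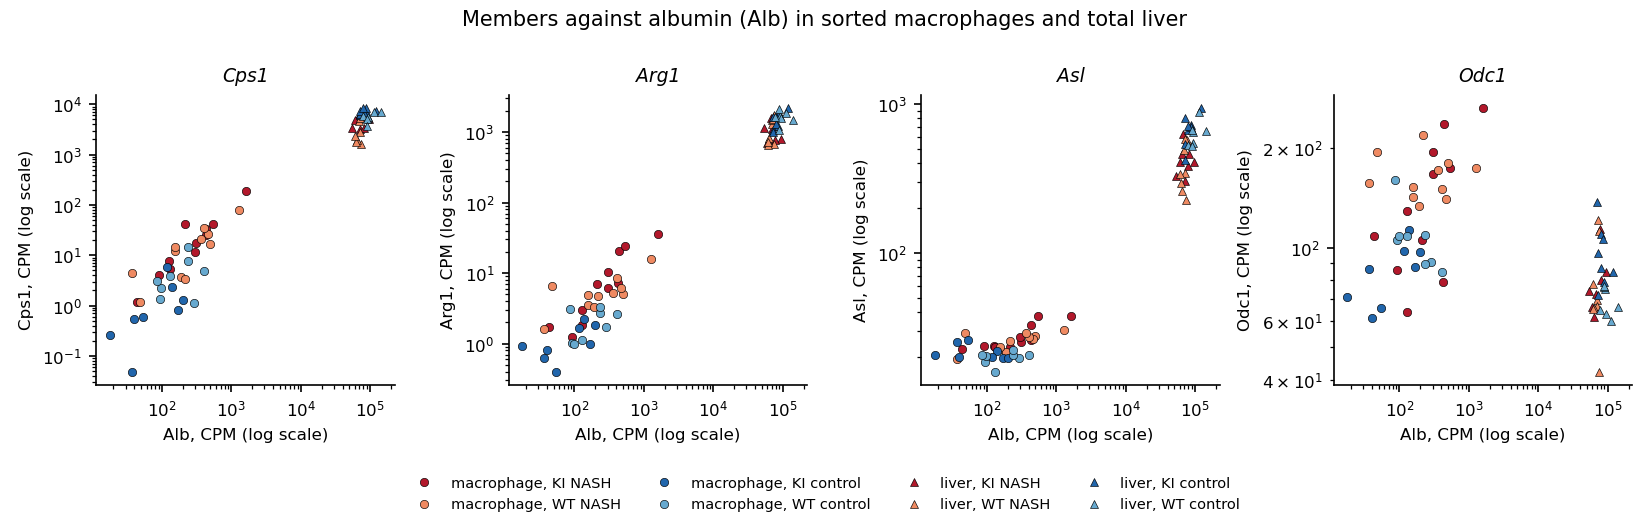
Cps1, Arg1, Asl and Odc1 against albumin (Alb), both in CPM on log axes, for each macrophage library (circles) and liver library (triangles), coloured by genotype and diet. Cps1 and Arg1 climb with Alb among the macrophage libraries towards the liver libraries, while Asl stays between 15.8 and 37.5 CPM in macrophages.

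Male KI and WT macrophages on the NASH diet differed in 3 of 9 members, Cps1, Otc and Arg1, all higher in KI (2.62% of all genes were higher), with a median of 1.29 against 0.0074 for all genes. Arg1 had the 7.05 to 35.8 CPM given above in KI NASH, against 3.34, 6.57, 4.82, 4.75 and 1.63 CPM in WT NASH macrophages, without overlap (log2 fold change 2.22, SE 0.44, adjusted p = 0.0178). Cps1 had 3.64, 1.18, 14.8, 3.38 and 4.51 CPM in WT NASH macrophages, whose highest library exceeded the lowest KI NASH library (log2 fold change 3.54, SE 0.80, adjusted p = 0.0251). The log2 fold change of Otc was 2.80 (SE 0.64, adjusted p = 0.0259). Here 11 of 13 hepatocyte markers were higher too (median 2.63), with sums of 543 to 3301 CPM in KI NASH and 82.4 to 400.1 CPM in WT NASH macrophages. Per 1000 CPM of Alb, the levels of Arg1, Cps1 and Otc given above overlapped between these groups. The part of hepatocyte transcripts in these calls was not tested. The count was 0 when KI NASH replicate 4 or WT NASH replicate 1 or 5 was left out, 1 without WT NASH replicate 2 and 6 without KI NASH replicate 5, and it was 0 in a fit of these 2 groups alone and 5 by DESeq2.

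In male WT macrophages the diet changed no member (8.19% of all genes changed, with 3291 at an unadjusted p under 0.05; DESeq2 called 0 members), with Arg1 at a log2 fold change of 0.75 (SE 0.47, adjusted p = 0.349) and Odc1 at 0.55 (SE 0.23, adjusted p = 0.147). KI and WT control macrophages of males differed in no member and in none of all genes (0%, 862 at an unadjusted p under 0.05, and 0 members by DESeq2). The difference of the diet effects in males, KI minus WT, passed for no member and no gene (0%, 1595 at an unadjusted p under 0.05), at 4.81 for Cps1 (SE 1.20, adjusted p = 0.166) and 2.79 for Arg1 (SE 0.68, adjusted p = 0.166); DESeq2 called 3 members.

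In females, members were also higher in WT macrophages on the NASH diet. Of 9 members 5 were higher in WT NASH than in WT control macrophages (8.44% of all genes were higher), with a median of 2.16 against -0.014 for all genes. Cps1 ranged from 12.1 to 80.2 CPM (median 23.8) in the 6 WT NASH libraries, against 1.12, 7.54, 1.33 and 3.81 CPM in WT control macrophages (log2 fold change 3.25, SE 0.77, adjusted p = 0.0141). Arg1 ranged from 3.55 to 15.7 CPM (median 5.67) in WT NASH, against 1.74, 2.75, 1.02 and 1.11 CPM in WT control macrophages (log2 fold change 2.16, SE 0.52, adjusted p = 0.0145). In both genes the lowest WT NASH library was above the highest WT control library. Otc was higher at 3.02 (adjusted p = 0.0185), Odc1 at 0.72 (adjusted p = 0.0238) and Asl at 0.55 (SE 0.09, adjusted p = 0.00188), the last with 22.7 to 30.2 CPM in WT NASH and 15.8 to 20.6 CPM in WT control macrophages. Of 13 hepatocyte markers 7 were higher (median 1.74), and those other than Trf summed to 271 to 2112 CPM in WT NASH and 142 to 425 CPM in WT control macrophages; their part in the result was not tested. The count was 3 without WT control replicate 1 and 2 without WT control replicate 3.

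Female KI macrophages had 2 of 9 members higher on the NASH diet (1.79% of all genes were higher), with a median of 2.37 against -0.013. Cps1 ranged from 1.19 to 25.6 CPM (median 6.51) in KI NASH, against 0.589, 0.0474, 0.255 and 0.548 CPM in KI control macrophages (log2 fold change 4.75, SE 0.96, adjusted p = 0.0226), and Arg1 from 1.25 to 7.24 CPM (median 2.42) in KI NASH, against 0.393, 0.616, 0.919 and 0.801 CPM in KI control macrophages (log2 fold change 2.37, SE 0.56, adjusted p = 0.035). Both were higher in every KI NASH library than in any KI control library. Only 3 of 13 hepatocyte markers passed (median 2.34), with sums of 68.9 to 738 CPM in KI NASH and 32.1 to 87.1 CPM in KI control macrophages. The count was 0 without KI control replicate 1, 2 or 3, 1 without KI control replicate 4 or KI NASH replicate 2 or 5, and 4 without KI NASH replicate 3; it was 0 in a fit of these 2 groups alone and 5 by DESeq2.

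No member differed between KI and WT female macrophages. On the NASH diet (0.561% of all genes, 2377 at an unadjusted p under 0.05) Cps1 was at -1.65 (SE 0.60, adjusted p = 0.156) and DESeq2 called 1 member, as did the fit without KI NASH replicate 2. On control diet (4.64% of all genes, 2762 at an unadjusted p under 0.05) Cps1 was at -3.15 (SE 1.03, adjusted p = 0.0801), with every KI library below every WT library. The summed level of the 12 hepatocyte markers other than Trf was separated likewise. It was 32.1 to 87.1 CPM per KI control library, whereas WT control libraries reached 142 to 425 CPM. Its part in the lower Cps1 was not tested, and how many of all genes separated like this was not counted. DESeq2, the fit of these 2 groups alone and the fit without KI control replicate 4 each called 1 member. The KI minus WT difference of the diet effects passed for none (0.288% of all genes, 1178 at an unadjusted p under 0.05, 0 members by DESeq2).

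Between the sexes, the KI effect on the NASH diet in macrophages was lower in females for 6 of 9 members (3.96% of all genes were lower). The female minus male difference was -5.18 for Cps1 (SE 1.03, adjusted p = 0.00193), -4.37 for Otc (SE 0.91, adjusted p = 0.0025), -3.28 for Arg1 (SE 0.63, adjusted p = 0.00168), -3.01 for Nags (adjusted p = 0.0436), -0.91 for Slc25a15 (adjusted p = 0.0408) and -0.57 for Asl (adjusted p = 0.0126). Of the hepatocyte markers 12 of 13 differed in the same direction (median -3.93), and their part was not tested. Without male KI NASH replicate 4 the count was 3, Cps1, Otc and Arg1. The call of Nags was lost in 22 of 38 fits without 1 library and that of Slc25a15 in 15 of 38, and both were lost with no filter and with a replicate block. Without the library with contradicting sex genes the count was 5, with Nags at an adjusted p of 0.0505. The diet effect in WT mice differed between the sexes in no member (0.0224% of all genes, 2281 at an unadjusted p under 0.05, 0 members by DESeq2), nor did that in KI mice (0.68% of all genes, 2087 at an unadjusted p under 0.05, 1 member by DESeq2); 1 member passed there without male KI NASH replicate 5, female KI control replicate 4 or female KI NASH replicate 5.

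Slc7a2 ranged from 0.332 to 167 CPM over the macrophage libraries, with low and high libraries in the same group. In female KI control macrophages it had 0.432, 0.332, 28.4 and 31.8 CPM, and in female WT control macrophages 0.502, 4.62, 13.6 and 10.3 CPM. Male WT control macrophages had 0.547, 23.9, 17.3 and 10.2 CPM. Each of these 3 groups held at least 1 library under 1 CPM and others above 10 CPM. To see which genes shared this spread, each gene's log2 deviations from its group means were compared over the 38 macrophage libraries and 11677 genes; the comparison was chosen after the values were seen, is descriptive and shares library and depth between all genes. Of the 10 genes most like Slc7a2, 6 lie within 2 Mb of it on chromosome 8, where 0.103% of the genes searched lie: Pdgfrl (r = 0.914), Mtus1 (0.875), Tusc3 (-0.716), Pcm1 (0.713), Zdhhc2 (-0.666) and Micu3 (0.664). Tusc3 and Zdhhc2 ran opposite to Slc7a2. The likeness concerns libraries of 1 group: between groups, Slc7a2 was at 23.4 to 92.2 CPM over the total count in male KI NASH and 0.674 to 10.7 CPM in male KI control macrophages, whereas Mtus1 was at 30.3 to 139 CPM in KI NASH and 40.4 to 134 CPM in KI control macrophages.

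Arg2 showed a weaker form of the same pattern. Its 3 most alike genes, Rdh11 (r = 0.79), Vti1b (0.768) and Tmem229b (0.759), all lie within 2 Mb on chromosome 12, where 0.18% of the genes searched lie, and Vti1b overlaps Arg2 on the opposite strand. None of the 10 most alike genes of Arg1, Cps1, Otc, Asl, Slc25a15 or Odc1 lay within 2 Mb. The strains behind the mice are not given in the labels, and no cause was tested.

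**Figure D5:**
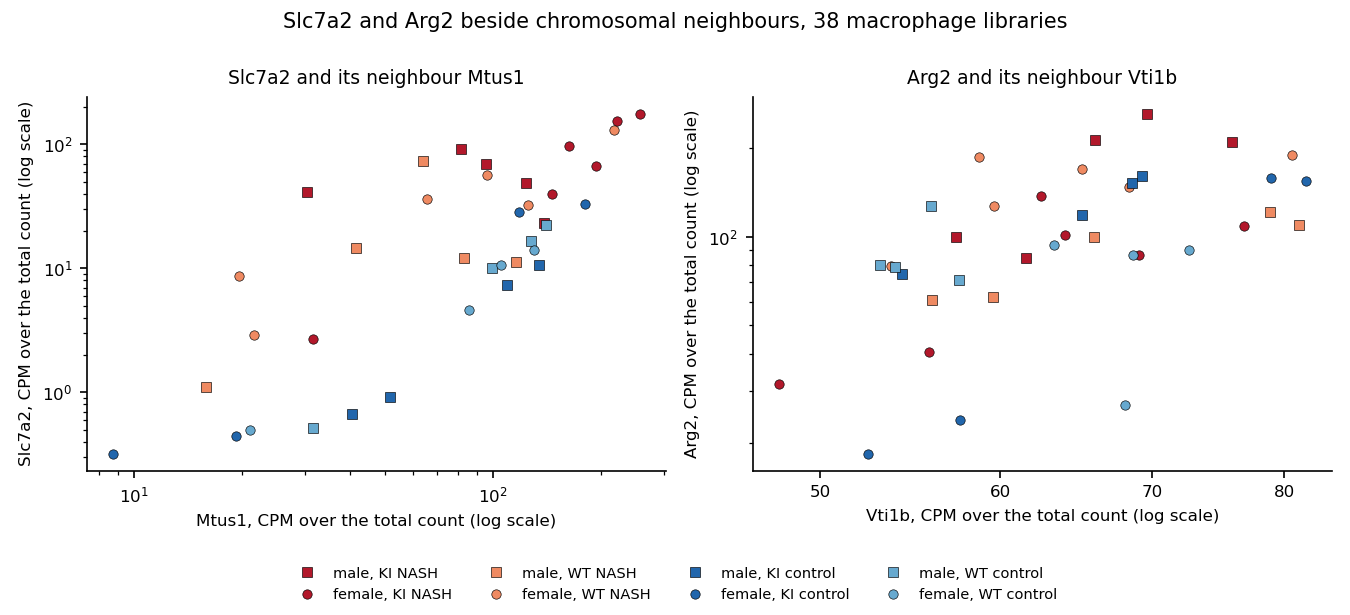
Slc7a2 against Mtus1 and Arg2 against Vti1b in the 38 macrophage libraries, in CPM over the total count on log axes, with squares for males and circles for females. On this scale Slc7a2 spans 0.32 to 176 CPM, and its deviations from the group means run with those of Mtus1 (r = 0.875).

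In liver, the genes most alike each member were sought over 31 libraries and 11362 genes, on deviations of log2 CPM from the mean of each sex, so these likenesses hold group differences too. Arg1 was like Asl (r = 0.874) and Got1, a cytosolic aspartate aminotransferase (0.869). Asl was like Mpnd (0.880) and F10 (0.880), and Otc most like Fah (0.878), the last enzyme of tyrosine breakdown, Ugt2a3 (0.870) and Akr1c12 (0.854). Cps1 was most like Gm4788 (0.913), Lgr4 (0.911) and Ubr2 (0.905). Slc7a2 was most like the amino acid transporter gene Slc38a4 (0.882), Foxo3 (0.863) and Cps1 (0.844), and Slc25a15 most like Slc25a51 (0.887), Atl2 (0.859) and Paics (0.856). Odc1 was most like Mybbp1a (0.808), Copb2 (0.792) and Scfd1 (0.790), and Nags most like Slc45a3 (0.739), Serpina3n (0.739) and Kif21a (0.737).

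A list of 64 other genes of amino acid, polyamine and nitric oxide metabolism and of their regulators was counted beside the members. In male WT livers on the NASH diet 17 of 58 tested fell and 6 rose (21% of all genes changed either way), led by Tat, tyrosine aminotransferase (-2.46), Got1 (-2.27), Ppargc1a, a coactivator of fasting genes (-1.38), and Sds, serine dehydratase (-1.35). In KI against WT NASH livers of males 13 of 58 were higher and 10 lower, a share near that of all genes (37%). The largest changes were in the transporter Slc7a6 (-1.64), Tat (1.64), Ddah2 (-1.51) and the spermine oxidase Smox (-0.93). Between KI and WT control livers of males 1 of 58 was higher (Gldc, 0.75) and 2 were lower (Got1, -1.27, and Gamt, -0.91), a share near that of all genes (4.67%). In female KI livers on the NASH diet 7 of 57 fell and 1 rose (8.83% of all genes changed), again led by Tat (-2.65), Ppargc1a (-1.91), Sds (-1.73) and Got1 (-1.54).

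Between KI and WT control livers of females, 4 of 57 list genes were higher and 2 lower (7.57% of all genes differed), led by Tat (1.78), Ppargc1a (1.52), Azin2 (-1.42) and Sds (1.16). The KI minus WT difference of the diet effect in females was lower for 6 of 57 list genes and higher for 1 (4.77% of all genes differed), led by Tat (-2.99), Ppargc1a (-2.28), Nos3 (-1.70) and Cebpa (1.56). Between the sexes, female minus male, the WT diet effect in liver was higher for Tat (2.85), Got1 (1.98) and Azin1 (0.92), where 1.68% of all genes differed, and the KI effect on the NASH diet was lower for Tat (-2.86), Ppargc1a (-1.75), Paox (-1.22) and Hnf4a (-1.19), the 4 with the largest differences (14% of all genes differed). Azin1, Azin2 and Paox act in polyamine metabolism, and Cebpa and Hnf4a are hepatocyte transcription factors.

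Macrophages of male KI mice on the NASH diet had 27 of 59 list genes higher and 2 lower than KI control macrophages (24% of all genes changed), led by Sds (4.99), Tdo2 (4.39), Agxt2 (4.08) and the mitochondrial carbonic anhydrase Car5a (3.99), enzymes that hepatocytes express. Against WT NASH macrophages 15 were higher and none lower (3.13% of all genes differed), led by Tdo2 (3.49), Agxt2 (3.31), Car5a (3.27) and Tat (3.25). In male WT macrophages 4 of 59 list genes passed for the diet, a share near that of all genes (8.19%). They were Asns (3.37), Nos3 (2.52), Ddah2 (1.46) and Nr3c1 (-0.37). In female WT macrophages on the NASH diet 15 of 58 rose and 1 fell (12.9% of all genes changed), with Agxt2 (4.42), Slc38a4 (3.38) and Slc38a3 (3.14) among them, and in female KI macrophages 7 rose and none fell (2.31% of all genes changed), with Hpd (4.21), Tdo2 (3.79) and Slc38a4 (3.36) among them. Female KI control macrophages had more Nos2, the inducible nitric oxide synthase that competes with arginase for arginine (2.75), and Slc7a6 (0.74) than WT control macrophages, and less Hpd (-3.21). These were 3 of 58 list genes, a share near that of all genes (4.64%). The same sex difference in macrophages, female minus male for KI against WT with NASH feeding, was led by Gldc (-5.04), Tat (-4.93), Tdo2 (-4.92) and Agxt2 (-4.79), among 20 list genes that were lower (4.37% of all genes differed). In 11 of the 26 comparisons no list gene passed.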

How the data were processed

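The authors deposited raw counts per gene symbol in 3 tables, whole numbers with a different total in each library; each column was assigned by the sample title. The genome build was mm10, per the submitters' processing notes. Per the labels' protocols, RNA came from illustra RNAspin (liver) and Qiagen miRNeasy micro (macrophage) kits and libraries from the Illumina TruSeq Stranded mRNA kit; for the aligner, counter, annotation and strand setting, the version or choice is not given in the sources used here. The male liver WT control replicates 3 and 4 had a mean chi-square of 0.0671 per gene over genes with a summed count of 20 to 200, whereas the 121 remaining within-group pairs had 2.05 to 11.9, and their rounded mean was used.

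Counts were fitted with edgeR 4.0.16 in R 4.3.3 (TMM scaling, filterByExpr with a minimum count of 10 and a total of 15, quasi-likelihood test), in 6 fits: each tissue and sex, and each tissue over both sexes on shared symbols. Adjusted p-values are Benjamini-Hochberg over all genes of a fit, with a threshold of 0.05, for 26 comparisons. Nothing in the labels says that libraries are separate animals, so p-values measure the spread between these libraries. CPM values are TMM-scaled unless stated, and intervals other than the SE were not computed. The fits of each tissue and sex were tested on simulated counts with 200 changed genes, for KI against WT on the NASH diet. Of 2-fold changes they called 68% (male liver), 60% (female liver), 61.6% (male macrophages) and 81% (female macrophages). Of 4-fold changes they called 87% to 93.9%, and 2.63% to 4.42% of the calls were false. All other genes were simulated alike in every group, and the other comparisons were not simulated. Changes of 2-fold or less can thus be missed, and the simulation sets no upper limit for the other comparisons. In male control macrophages Spp1, at a log2 fold change of 4.56 for KI against WT, did not pass the quasi-likelihood test (adjusted p = 0.635).

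All 10 members are named, and in each comparison those that passed, with values of others. Of the list of 64 other genes, the counts and up to 4 called genes with the largest change per comparison are named; so are the 3 liver genes most alike each member with a mean of at least 1 CPM, and Spp1, Osm, Osmr, Stat3 and Cpt1a. Some genes that these rules name are not reported here. Marker lists were used for general, periportal and pericentral hepatocytes, Kupffer cells, lipid-associated macrophages, recruited monocytes, neutrophils, stellate cells and cholangiocytes. The members, lists and tests were chosen with earlier results of these data known. Gene positions, lengths and the Ass1 sequences come from GENCODE M21 on GRCm38, used as the matching build of mm10. Alternatives were DESeq2 1.42.0, RLE size factors, no filter, a replicate block, leaving out each library or those with contradicting sex genes, and fits of the compared groups alone; the comparison of macrophage genes with their neighbours and the hepatocyte sum without Trf were added after the data were seen.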

Additional observations from a re-analysis of the deposited data

Results flagged for a closer look

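Within groups of 4 to 10 libraries, 143 sets of values of a member were tested for a library far from the rest (Dixon's test), and 18 had one. Chance gives about 1 in 20 for independent, normally distributed values. The members share libraries, and Ass1 in male WT control and Nags in female KI control macrophages had 1 count in the whole group. The number found can thus not be set against that rate. In liver these were male WT NASH replicate 4 for Slc7a2 (365 CPM), female KI NASH replicate 1 for Cps1 (5404 CPM) and Otc (529 CPM), female WT NASH replicate 4 for Nags (91.1 CPM) and male KI control replicate 3 for Ass1 (0.152 CPM). In male macrophages they were KI NASH replicate 4 for Cps1 (191 CPM), Otc (15.5 CPM) and Slc25a15 (18.1 CPM), WT NASH replicate 3 for Cps1 (14.8 CPM) and replicate 2 for Slc7a2 (73.4 CPM), KI control replicate 3 for Asl (22 CPM), and WT control replicate 1 for Arg2 (136 CPM), replicate 2 for Asl (22.2 CPM) and replicate 4 for Ass1 (0.0534 CPM, 1 count). In female macrophages they were WT NASH replicate 3 for Cps1 (80.2 CPM) and Otc (8.37 CPM), KI control replicate 1 for Nags (0.0393 CPM) and WT control replicate 4 for Arg2 (25.9 CPM).

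There were 11 effects that differed between the sexes by a test of the difference, given as female minus male on the log2 scale. In liver the diet effect in WT mice differed for Cps1 (1.55) and Arg1 (0.87), and the KI effect on the NASH diet for Cps1 (-1.82), Slc7a2 (-1.47) and Slc25a15 (-0.99). In macrophages the KI effect on the NASH diet differed for Cps1 (-5.18), Otc (-4.37), Arg1 (-3.28), Nags (-3.01), Slc25a15 (-0.91) and Asl (-0.57).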

How the results depend on the processing

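Of 234 pairs of a member and a comparison 44 passed, and none changed its sign in any of the alternatives run where it had passed. RLE size factors lost 1 of the 44 calls, no filter 6 and fits of the compared groups alone 8 (2 gained). DESeq2 lost 0 and gained 21, and leaving out libraries with contradicting sex genes lost 1 and gained 7. Using replicate 3 or 4 alone of the male WT control livers changed none. RLE factors moved the median of all genes by at most 0.02 (log2).

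Some counts of members moved by over 1.5 times. By DESeq2 they were 1 for the male liver KI diet effect and for the male liver KI minus WT difference, 4 for that difference in female liver, 5 for male macrophages KI against WT on the NASH diet, 3 for the male macrophage difference, 5 for the female macrophage KI diet effect, 1 for female macrophages KI against WT on either diet, 5 for the sex difference of the WT diet effect in liver (1 without a filter) and 1 for that of the KI diet effect in macrophages. Without the libraries with contradicting sex genes they were 1 for male liver KI against WT on control diet, 2 for the male liver difference and 6 for the sex difference of the WT diet effect. Fits of the compared groups alone gave 2 for female liver KI against WT on control diet, 0 for male macrophages KI against WT on the NASH diet, 0 for the female macrophage KI diet effect and 1 for female macrophages KI against WT on control diet.

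Same-numbered libraries of different groups correlated at -0.135 to 0.23 (male liver), -0.188 to 0.134 (female liver), -0.233 to 0.563 (male macrophages) and -0.358 to 0.524 (female macrophages). Their medians were 0.0374, 0.0032, 0.0413 and -0.031 in that order, against -0.00314, -0.00477, -0.00439 and -0.0114 for differently numbered libraries. The medians show no general pairing by number, but the check cannot tell whether some libraries shared an animal or batch. With a replicate block 9 calls were lost and 1 gained, with 3 members for the female macrophage WT diet effect and 0 for the KI diet effect.

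Leaving out 1 library at a time gave 5 to 6 (WT diet effect), 0 to 0 (KI diet effect), 0 to 1 and 2 to 4 (KI against WT on control and NASH diet) and 0 to 2 (difference) in male liver; 0 to 0, 0 to 5, 0 to 1, 0 to 0 and 0 to 4 in female liver; 0 to 0, 6 to 8, 0 to 0, 0 to 6 and 0 to 0 in male macrophages; and 2 to 6, 0 to 4, 0 to 1, 0 to 1 and 0 to 0 in female macrophages. Sex differences ranged from 0 to 6 (WT diet effect), 0 to 0 (KI diet effect) and 2 to 4 (KI on the NASH diet) in liver, and 0 to 0, 0 to 1 and 3 to 7 in macrophages. The cause of these shifts was not tested. Arg2 in liver and Nags and Otc in macrophages rest on few counts, which limits what these depths can show.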
